A study of Mus musculus with 10 samples.

Results

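The genes described here are 6 genes of the actin cytoskeleton and of cell motility, Rhoa, Msn, Was, Flna, Gnai2 and Tagln, in mouse haematopoietic stem cells (HSCs) that carried the surface protein Jam2 or lacked it. They were taken by name from 2721 genes whose array rows could be identified, out of 22180 genes with a single symbol on the array. Genes without a row in this set were left out, so all 6 had a row by the way they were chosen. The brightest row stood for its gene. The cells came from 5 male wildtype mice of the strain named C57BL/6 SJL, whose age the labels do not give, and no group carried a transgene or received a treatment. Both groups were Lineage- Sca-I+ c-kit+ CD150+ CD48- cells, and they differed by the sort for Jam2. RNA of each group was measured on 5 single-colour arrays numbered 1, 2, 4, 5 and 6. The labels do not say whether an array stands for a mouse or a pool, so p-values measure the spread between these arrays.

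Cells move by building, bundling and pulling on actin filaments beneath their membrane. Chemokine receptors pass their signal through inhibitory G proteins to small GTPases. These in turn direct filament nucleation, contraction and the anchoring of filaments to the membrane. In blood stem cells this machinery is known for homing to the marrow, for holding the cell in its niche and for release into the circulation. Jam2 itself is a junctional adhesion molecule that binds a partner on neighbouring cells.

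Values, deposited on a log2 scale, ran from 1.83 to 13.75 over 41345 rows and 10 arrays. The array medians lay between 5.96 and 6.05. A pair of arrays was less like the rest: Jam2+ replicate 1 correlated across rows with the other arrays at a mean of 0.970 and Jam2- replicate 6 at 0.968, where the remaining arrays had 0.976 to 0.980. In the deposited table the IDs are displaced from their values, so the identity of every row named here is inferred. The IDs at the end of the table form a block, and the k-th ID of the block was given the values in the k-th row of the table. With this pairing, the median was 12.01 over 27 rows of ribosomal proteins, abundant in any cell. It was 3.63 over 140 rows of smell and pheromone receptors, which belong to sensory neurons. With the IDs as deposited the same families had medians of 5.91 and 5.09, and with 1 row fewer or more the ribosomal median fell to 7.52 or 6.59. The Y-linked genes Eif2s3y, Kdm5d and Uty had 8.85, 7.69 and 7.95 and Xist, which silences one X chromosome in females, had 4.61, in cells of male mice. As deposited, Xist had 9.35, Eif2s3y 2.94 and Uty 3.83, but Kdm5d had 8.57. With 1 row more, Kdm5d and Uty had 8.85 and 8.61, beside 5.61 for Eif2s3y and 7.09 for Xist. Kdm5d alone thus does not tell these pairings apart. Rows with identical values on all arrays formed 12 groups in the displaced block, and all 37 pairs within these groups fell on the same gene. With 1 row fewer 12 of 23 such pairs did so, and with 1 row more 17 of 30. With the pairing used here, the identical rows lay between places 2656 and 4670 of the block, which covers Was and Flna. Rhoa, Tagln, Gnai2 and Msn lay before them, at places 1111, 1551, 1941 and 2541, where 13 ribosomal rows had a median of 11.56 and 135 receptor rows one of 3.60. Thymosin beta 4 (Tmsb4x), an actin monomer binder that is abundant in blood cells, had only 6.69, and the cause was not tested. The 6 genes have all their rows on the array inside the block, whereas Rap1b, Tagln2 and Actg1, named further on, also have rows outside it that were not used here. For the other genes named further on, such as Tpm4 and Ssh1, rows outside the block are not described, so their values stand for the block only.

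**Figure D1:**
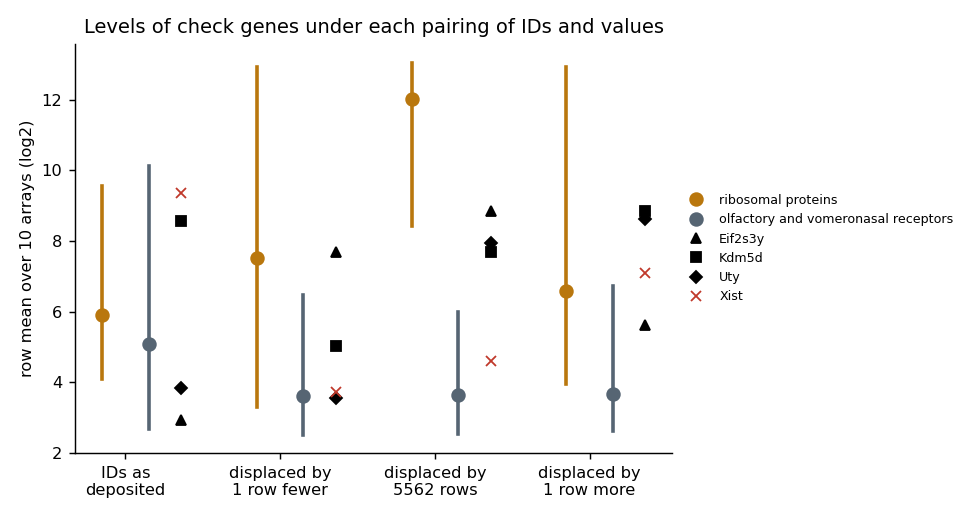
Row means over 10 arrays (log2, vertical axis) for check genes of the block under 4 pairings of IDs and values (horizontal axis); circles are family medians, bars run from the 5th to the 95th percentile of the family, and other symbols are single genes. The families lie apart, at 12.01 and 3.63, with the pairing used here, where the Y-linked genes also lie above Xist.

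None of the 6 genes passed the test for a difference between Jam2+ and Jam2- HSCs, and their differences were small. Limma's adjusted p, taken over all 41345 rows with a threshold of 0.05, was 1.00 for each of them, and 0 had an unadjusted p under 0.05. The differences, Jam2+ minus Jam2-, ran from -0.14 for Flna to 0.08 for Was, with a median of -0.01, where the median over all rows was 0.01. In the background, 0.00% of all rows passed the adjusted threshold, and 4.08% of all rows and 4.23% of the 2721 block genes had an unadjusted p under 0.05. For the 5 genes other than Tagln, whose row was too dim to bound a change, the 95% intervals of the brightest rows were narrow. The widest of the 5, that of Rhoa, ran from 1.23-fold lower to 1.14-fold higher in Jam2+ cells. The narrowest, that of Msn, ran from 1.10-fold lower to 1.11-fold higher. These bounds hold for the brightest row only. The dimmer rows of Rhoa had wider intervals, that of the second running from 1.12-fold lower to 1.37-fold higher. In RNA of whole sorted populations, fewer cells expressing a gene and less RNA per cell cannot be told apart.

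Rhoa encodes the small GTPase that switches on contraction through its kinases and filament growth through formins. In Jam2+ HSCs its log2 values were 10.90, 11.33, 11.20, 11.25 and 11.29 in replicates 1, 2, 4, 5 and 6. In Jam2- HSCs they were 11.19, 11.40, 11.33, 11.35 and 10.96 in the same order. The groups overlapped, and the lowest value of each came from the array that was least like the rest in that group. The means were 11.19 ± 0.17 (SD, n = 5) and 11.25 ± 0.18 (SD, n = 5), a difference of -0.05 (standard error 0.11; limma adjusted p = 1.00; exact two-sided permutation p = 0.571). Without Jam2+ replicate 1 the difference was 0.02. Rhoa had 2 dimmer rows in the block, and the rows did not give the same picture. The second, at a mean of 10.40, differed by 0.15 (standard error 0.14), and the third, at 6.69, by 0.003 (standard error 0.29; limma adjusted p = 1.00 for both). Over the 10 arrays, with array medians subtracted, the brightest row correlated with the second at a Pearson r of 0.23 and with the third at -0.06. Which transcripts or copies of Rhoa each row covers is not given in the sources used here.

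Gnai2 encodes the inhibitory G protein alpha subunit through which chemokine receptors such as Cxcr4 signal in blood cells. It stood at 10.29, 10.48, 10.45, 10.34 and 10.53 in Jam2+ replicates 1, 2, 4, 5 and 6. In the Jam2- arrays it stood at 10.38, 10.49, 10.37, 10.44 and 10.52. The whole range over 10 arrays was 0.24, and the groups overlapped almost fully. The means were 10.42 ± 0.10 (SD, n = 5) and 10.44 ± 0.07 (SD, n = 5), a difference of -0.02 (standard error 0.07; limma adjusted p = 1.00; exact permutation p = 0.675). Without Jam2+ replicate 1 the difference was 0.01, so its direction was not settled.

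Was encodes the Wiskott-Aldrich syndrome protein, a blood cell activator of the Arp2/3 complex, which starts branched filaments. Its values were 9.25, 8.98, 8.87, 9.01 and 9.06 in the Jam2+ arrays. They were 8.94, 8.72, 9.12, 9.05 and 8.94 in the Jam2- arrays. The highest value, in Jam2+ replicate 1, and the lowest, in Jam2- replicate 2, lay at opposite ends, while the other 8 arrays were mixed. The means were 9.03 ± 0.14 (SD, n = 5) and 8.95 ± 0.15 (SD, n = 5), a difference of 0.08 (standard error 0.10; limma adjusted p = 1.00; exact permutation p = 0.405). Without Jam2+ replicate 1 the difference was 0.03.

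Msn encodes moesin, which ties actin filaments to membrane proteins and is the main protein of its ERM family in many white blood cells. It was 10.52, 10.54, 10.56, 10.50 and 10.72 in the Jam2+ arrays. In the Jam2- arrays it was 10.57, 10.54, 10.59, 10.56 and 10.57. Apart from Jam2+ replicate 6, all arrays lay within 10.50 to 10.59. The means were 10.57 ± 0.09 (SD, n = 5) and 10.57 ± 0.02 (SD, n = 5), a difference of 0.001 (standard error 0.07; limma adjusted p = 1.00; exact permutation p = 1.00). Without Jam2+ replicate 6 it was -0.04. A second row with the name Msn had a mean of 3.07, within the range of the receptor rows, and was not used.

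Flna encodes filamin A, which crosslinks filaments into a network and links integrins to it. Its values were 9.63, 9.90, 9.87, 9.85 and 9.96 in the Jam2+ arrays. In the Jam2- arrays they were 9.85, 10.15, 10.01, 9.94 and 9.96. Flna had the largest estimate among the 6 genes and the smallest exact p. Its Jam2+ value was lower in 5 of 5 same-numbered arrays, in replicate 6 by only 0.002, and the groups still overlapped. The means were 9.84 ± 0.13 (SD, n = 5) and 9.98 ± 0.11 (SD, n = 5), a difference of -0.14 (standard error 0.09; limma adjusted p = 1.00; exact permutation p = 0.0873, where 0.0079 is the smallest the design allows). The interval of the difference ran from -0.33 to 0.05. With single arrays left out it lay between -0.17 and -0.09, the smallest estimate without Jam2+ replicate 1. The groups did not overlap in 0.747% of all rows, and 0 of the 6 genes were among them.

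Tagln encodes transgelin, an actin side-binding protein best known from smooth muscle. It had 5.10, 5.91, 5.64, 5.55 and 5.58 in the Jam2+ arrays. The Jam2- arrays had 6.15, 5.33, 5.48, 5.28 and 5.57. The 2 replicates numbered 1 held the lowest and the highest value of all 10 arrays. The means were 5.56 ± 0.29 (SD, n = 5) and 5.56 ± 0.35 (SD, n = 5), a difference of -0.01 (standard error 0.19; limma adjusted p = 1.00; exact permutation p = 0.976). Without Jam2+ replicate 1 the difference was 0.11 and without Jam2- replicate 1 it was 0.14. Its mean of 5.56 lay below 5.99, the 95th percentile of the receptor rows and the upper end of what is called the receptor range here, so it lay within the levels of genes that served as the floor. The other 5 genes lay above all 140 receptor rows.

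**Figure D2:**
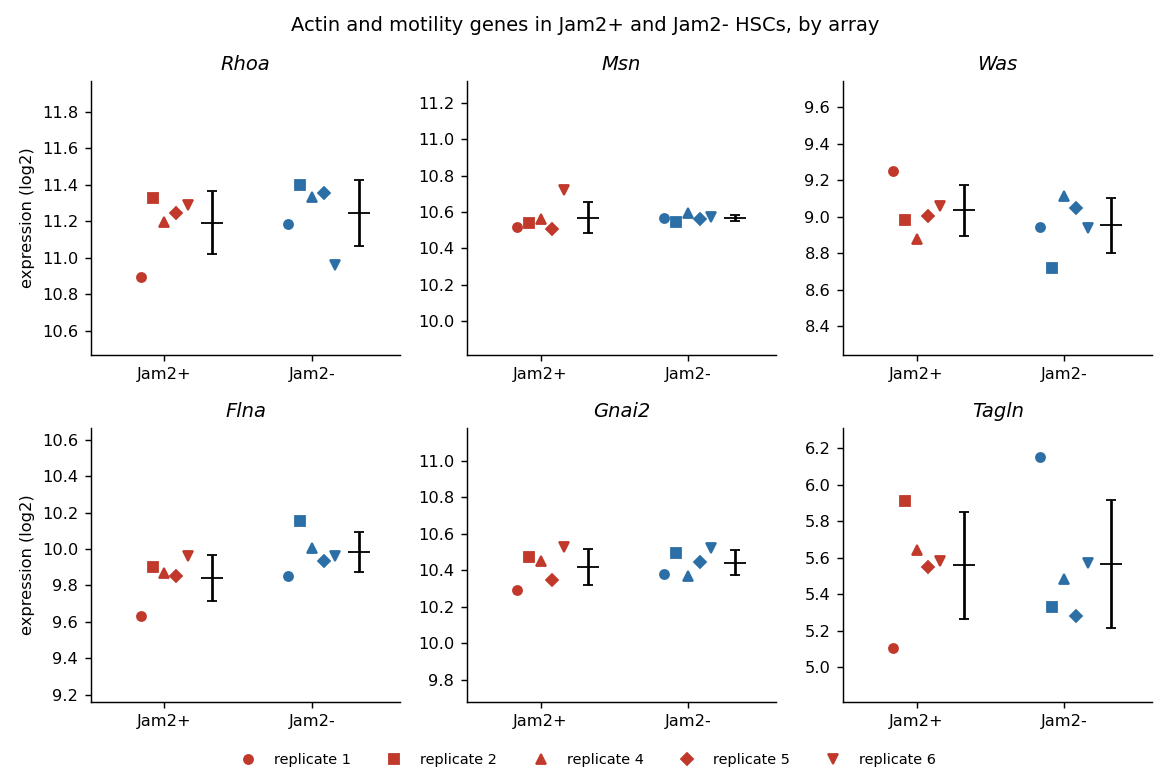
Expression (log2, vertical axis, each panel spanning the same 1.5 units) of the 6 genes in Jam2+ (red) and Jam2- (blue) HSCs; symbols are arrays by replicate number and black bars are the mean ± SD of 5 arrays. The groups overlap in every panel, Msn is the tightest and Tagln the most scattered.

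The spread between arrays differed from gene to gene. Msn had a within-group SD of 0.06 pooled over both groups, and 1.27% of the 157 block genes within 1 log2 unit of its level had a smaller one. For Gnai2 the pooled SD was 0.08, and 8.24% of 182 such genes were below it. Flna, at 0.12, had 28.7% of its like-level genes below it, and Was stood at 0.14. The brightest row of Rhoa, at 0.18, had 76.1% of 88 genes below it, and Tagln, at 0.32, had 92.1% of 1012 genes below it. Because Msn and Gnai2 varied so little, their data give the closest bounds on a difference. Of the genes named here, 3 lie on chromosome 9 (Rhoa, Gnai2 and Tagln) and 3 on the X chromosome (Msn, Was and Flna) in the RefSeq table. The rule favours this, since the block holds 1254 genes of chromosome 9 and 899 of the X chromosome.

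One array was often at an extreme. Jam2+ replicate 1 was the lowest of the 10 arrays for 4 of the 6 genes, by -0.32 for Rhoa, -0.28 for Flna, -0.14 for Gnai2 and -0.46 for Tagln against the gene's mean, and the highest for Was, by 0.26. It was also one of the arrays least like the others over all rows. Without it alone, Was stood at 0.03 in place of 0.08 and Flna stood at -0.09 in place of -0.14. Without it and Jam2- replicate 6, the differences were -0.05 for Rhoa, 0.01 for Msn, 0.02 for Was, -0.09 for Flna, 0.03 for Gnai2 and 0.11 for Tagln, and 0 passed.

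**Figure D3:**
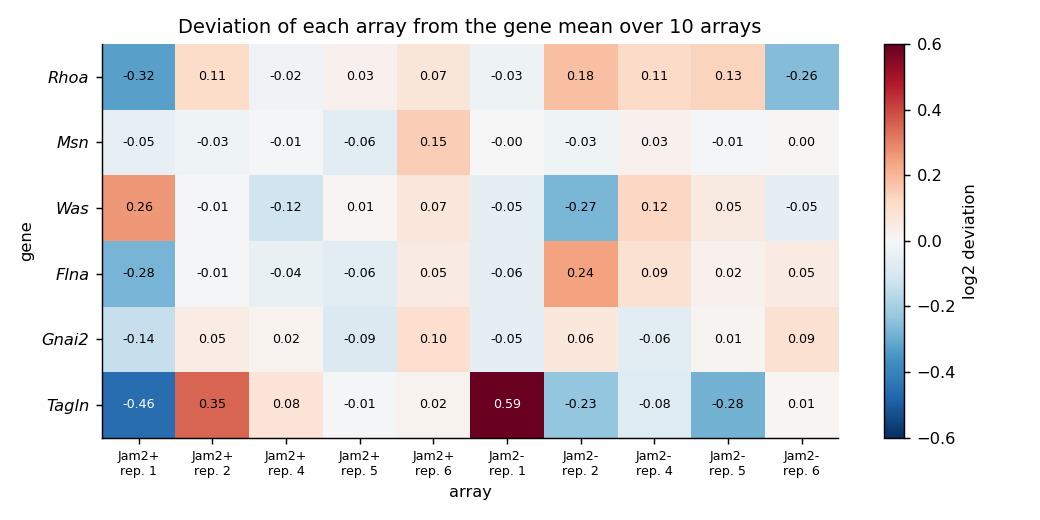
Deviation of each array (columns) from the mean of each gene (rows) over 10 arrays, in log2 units given in the cells and by colour. Jam2+ replicate 1 is low for Rhoa, Flna, Gnai2 and Tagln and high for Was, and for none of the 6 genes do the colours separate the groups.

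Over the 10 arrays, with array medians subtracted, 15 pairs of these genes were compared. Flna correlated most closely with Gnai2 (Pearson r = 0.73, permutation p = 0.0160; Spearman rank correlation 0.61, permutation p = 0.0673) and with Rhoa (Pearson r = 0.71, permutation p = 0.0205; Spearman rank correlation 0.73, permutation p = 0.0208). Adjusted over the 15 pairs by the Benjamini-Hochberg method, the Pearson permutation p was 0.154 for both, and the Spearman p was 0.505 and 0.312. No pair passed after adjustment. Without the 2 arrays farthest from the median of the first gene, r was 0.45 for Flna and Gnai2 and 0.83 for Rhoa and Flna. Was went against Flna at -0.47 over all arrays (permutation p = 0.161, adjusted 0.564), and r was 0.82 without the 2 arrays farthest from the median of Was and -0.11 without Jam2+ replicate 1 and Jam2- replicate 6, so that value rests on a few arrays.

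Among 1464 block genes above the receptor range, the most alike over the 10 arrays were picked by the highest Pearson r, as a description with no test. For Rhoa they were Gpd1l (0.89), Layn (0.89) and Med17 (0.86), and for Gnai2 they were Norad (0.93), Col6a6 (0.87) and Morc4 (0.87). For Flna they were Ctnnb1 (0.91), which encodes beta-catenin, Idh3a (0.90) and Arcn1 (0.88). For Was they were Tbl1x (0.92), Taf9b (0.90) and Nrgn (0.88), and for Msn they were Cspg5 (0.89), Sesn3 (0.85) and Zfp319 (0.85). For Tagln they were Fam199x, Kcne1l and Sytl4, at 0.78 to 0.80. All these genes had a limma adjusted p of 1.00 between the groups. The arrays are few and the genes many, and all share the same 10 libraries.

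None of the other genes of the machinery passed the test either. Lists of 409 genes in 9 groups had 80 genes in the block, and 74 of these were other than the 6. Of the 74, 54 lay above the receptor range, 0 passed the adjusted threshold, and 2 had an unadjusted p under 0.05, or 2.70%, beside the background of 4.23%. Estimates were above 0 for 42 and below 0 for 32, with a median of 0.02. The 2 genes were Anln and Rap1b.

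Anln encodes anillin, a scaffold of the contractile ring in dividing cells. It ranged from 7.15 to 8.23 in Jam2+ and from 6.92 to 7.15 in Jam2- arrays, so the groups met at their edges. The difference was 0.51 (standard error 0.18; limma adjusted p = 1.00; exact permutation p = 0.0159). Rap1b, a small GTPase that activates integrins, ranged from 7.26 to 8.02 in Jam2+ and from 7.87 to 8.24 in Jam2- arrays. Its difference was -0.44 (standard error 0.15; limma adjusted p = 1.00; exact permutation p = 0.0317). Neither passed, and both were picked for their small p.

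The ERM and membrane linker list had 5 of 33 measured, none called, and differences of -0.04 to 0.05. Rdx, which encodes the moesin relative radixin, had 9.64 ± 0.09 and 9.68 ± 0.18 (SD, n = 5 each). Like Msn, it lay well above the receptor range in both groups.

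Of the WASP, WAVE and Arp2/3 list 5 of 51 genes were measured, with none called and differences of -0.13 to 0.08. The adaptor Nck1, which recruits WASP family proteins, differed by -0.13 (standard error 0.16), opposite in sign to Was at 0.08 and likewise within its error. Pstpip1, which binds the Was protein, had 8.88 ± 0.12 and 8.92 ± 0.08 (SD, n = 5 each), and the kinase Btk differed by -0.06. Of the monomer, severing and capping list 10 of 44 were measured, with none called and a median of -0.07. Tmod3, a cap of the slow-growing filament end, had 10.02 ± 0.17 and 10.13 ± 0.18 (SD, n = 5 each). Cotl1, a cofilin relative, differed by -0.11 (standard error 0.10) and Ssh1, a phosphatase that activates cofilin, by 0.07 (standard error 0.10). Actg1, which encodes cytoplasmic gamma-actin, had a row at 7.98 ± 0.38 and 8.10 ± 0.30 (SD, n = 5 each). Of the crosslinking list 12 of 48 were measured, with none called and a median of -0.02. There Shroom4 had the smallest p, with a difference of -0.17 (standard error 0.09; exact permutation p = 0.0635). The tropomyosin gene Tpm4 differed by -0.14 and the plastin gene Pls3 by 0.09. Tagln2, the relative of Tagln made by blood cells, had 8.37 ± 0.37 and 8.50 ± 0.27 (SD, n = 5 each), above the receptor range where Tagln was not.

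The integrin adhesion list had 6 of 40 genes measured, with none called and a median of -0.01. Besides Rap1b, the integrin subunits Itga11 and Itga9 differed by 0.10 and -0.11. The chemokine receptor and G protein list had 22 of 72 measured, 11 of them above the receptor range, with none called and a median of 0.03. The chemokine receptor genes Ccr4, Ccr8, Ccr9 and Ackr4 did not lie above that range, with means of 4.05 to 4.74 over the groups. Ccr3 at 3.43, Ccr2 at 4.48, Ccr1 at 4.51 and Cxcr6 at 4.85 did not lie above it either. Xcr1 at 5.64 and Cxcr5 at 5.81 were nearer to its upper end, but also below it. Above it were Ccrl2 at 7.70, Cx3cr1 at 6.88, Ackr2 at 6.40 and Cxcr3 at 6.28. The smallest p of the list was that of Gnb5, a G protein beta subunit, with a difference of -0.28 (standard error 0.13; exact permutation p = 0.0873). The 4 unconventional myosins measured, Myo1e, Myo5a, Myo5c and Myo6, which carry cargo or tension along filaments, differed by 0.01 to 0.14. All counts of 0 here are limma's at an adjusted p under 0.05.

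**Figure D4:**
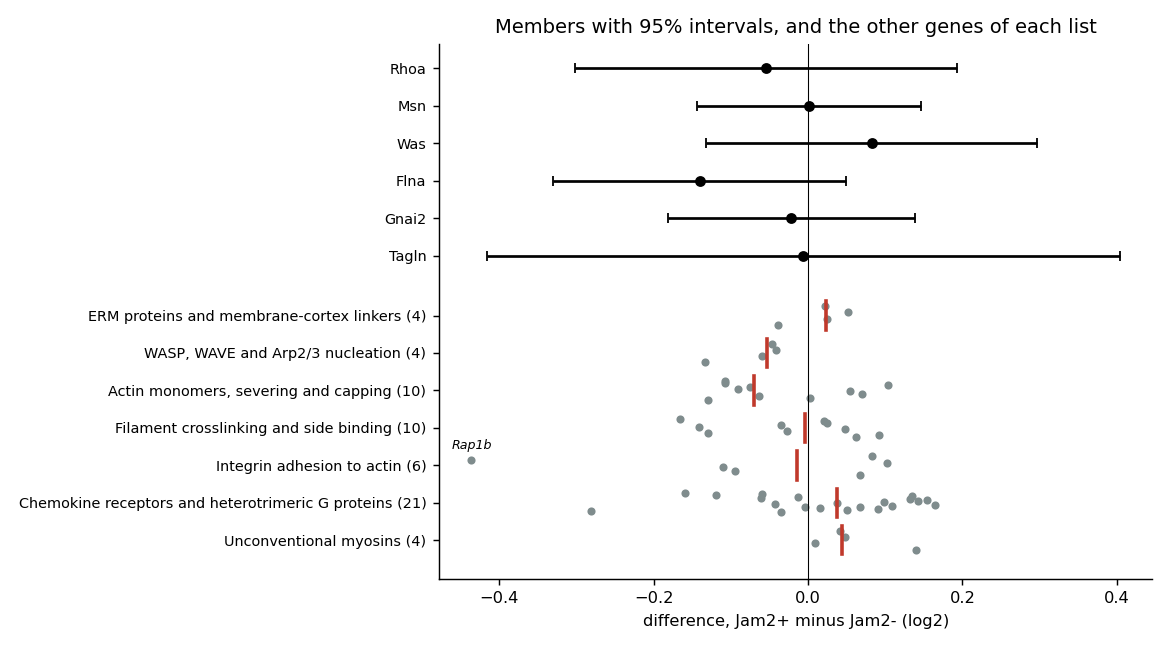
Differences between Jam2+ and Jam2- HSCs (log2, horizontal axis) with 95% intervals for the 6 genes, and below them as grey points for the other measured genes of 7 lists, with their number in brackets and their median as a red bar. All 6 intervals include 0, and of the genes plotted Rap1b (-0.44) lies farthest out; Anln (0.51) is not plotted.

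Markers of other cells were read beside these values, since mature white cells use the same machinery. Of 18 neutrophil markers 6 were in the block. Their mean ran from 5.53 to 5.57 in Jam2+ and from 5.62 to 7.04 in Jam2- arrays, led by Ngp, Camp and Ltf, granule protein genes (limma adjusted p = 1.00 for each). Their Jam2+ means of 5.76, 4.50 and 5.25 lay within the receptor range, so no size of difference is given, and their Jam2- means were 7.31, 6.22 and 6.02. Mmp8 and Cybb were also lower in Jam2+ arrays, with means within the receptor range in both groups. Mmp8 had means of 5.29 in Jam2+ and 5.41 in Jam2- arrays, and Cybb 5.04 and 5.23. Cfp, above the receptor range, went the other way, with 7.43 in Jam2+ and 7.33 in Jam2- arrays. The highest list means were 7.04 in Jam2- replicate 5 and 6.63 in Jam2- replicate 2. Those arrays had 11.35 and 11.40 for Rhoa, 9.05 and 8.72 for Was and 9.94 and 10.15 for Flna. In the same order they had 10.56 and 10.54 for Msn, 10.44 and 10.49 for Gnai2 and 5.28 and 5.33 for Tagln. Camp did not overlap between the groups, which also held for 0.747% of all rows. The part of these cells in the values of the 6 genes was not tested. Of 27 smooth muscle and stromal markers 13 were in the block, with list means of 6.37 to 6.56 in Jam2+ and 6.34 to 6.48 in Jam2- arrays. The smallest p was that of Mcam, with 6.21 ± 0.05 and 6.00 ± 0.13 (SD, n = 5 each; limma adjusted p = 1.00), and the largest difference, 0.31, that of Plod2. Cnn1, the calponin of smooth muscle, lay at 5.58, below the receptor limit like Tagln, while Bgn, which encodes biglycan, had 9.95. Among 7 measured T, B and NK cell markers only Thy1 lay above the receptor range, and Cd3g, Cd40lg and Foxp3 did not. Jam3, the binding partner of Jam2, had 6.12 ± 0.17 in Jam2+ arrays against 6.37 ± 0.16 in Jam2- arrays (SD, n = 5 each; limma adjusted p = 1.00; exact permutation p = 0.0635). Of 21 genes of the HSC sort and identity only Esam and Jam3 were in the block, so the sort itself was not checked on these rows.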

How the data were processed

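Biotin-labelled RNA of sorted HSCs was measured on 10 arrays. The authors deposited 1 log2 value per row and array; per the submitters' processing notes the R package oligo was used. Its version is not stated there, nor how background and scale were treated. The pairing of IDs and values was inferred as the report describes. Of the IDs in the block, 2872 had 1 gene symbol in the platform annotation and 397 had several, which were not named. Of the 2721 genes, 2664 had their Entrez identifier in the RefSeq table of GRCm38.p6.

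Limma's lmFit and eBayes were run on all 41345 rows with no covariate beside the group. Benjamini-Hochberg adjustment ran over all rows, so a p does not depend on the name a row is given. For single values an exact permutation test (two-sided, all assignments of 5 arrays against 5) was used, and correlations by 100000 permutations. The test used no filter on dim rows; the 95th percentile of receptor rows, 5.99, described levels and set which genes could be named as most alike. The rule for named genes took the 6 genes, up to 4 genes of each list by smallest p, measured marker genes, and the 3 most alike genes of each. Not every measured marker is named in the report. The endothelial, erythroid, megakaryocyte and platelet, and monocyte and macrophage marker lists are not reported here. Tmsb4x, Actg1, Tagln2, Ccr8, Ccrl2, Ackr2 and Cxcr3 were added after their values were seen, as were Ccr1, Ccr2, Ccr3, Cxcr5, Cxcr6 and Xcr1. Of the 9 lists, 7 are described one by one; the other two enter the joint counts and are not reported here. The members and lists were chosen with earlier results of these data known. Array number limits the precision. Alternatives were the replicate block, each array left out, rescaling, filters, array weights, other variance models, other rows per gene and other displacements. The fit used limma 3.58.1 in R 4.3.3; permutations used scipy 1.17.1 with numpy 2.4.6 in Python 3.11.15; tables were joined with pandas 2.3.3.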

Additional observations from a re-analysis of the deposited data

Results flagged for a closer look

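In 40 groups of 5 arrays, over the 6 genes and the list means reported here, 1 held a value far from the others, where chance gives about 2.0. Msn in Jam2+ replicate 6 was 10.72, against 10.56 for the nearest Jam2+ array.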

How the results depend on the processing

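Of the 6 genes 0 were called under 24 of 24 alternatives, and of the list genes 0 under 23 of 23. In the main fit 0 of all 41345 rows passed, the smallest limma adjusted p being 0.562. Counts of 0 therefore say little about the stability of these genes. The alternatives tested all 80 list genes and all 6 genes except the filters: with the lowest 25% of rows removed 72 were tested, and with the lowest 50% removed 59 list genes and 5 of the 6 genes. A replicate block left both counts at 0, and Flna then differed by -0.14 (limma adjusted p = 0.997). Same-numbered arrays had deviations whose correlations were 0.11, -0.02, 0.01, 0.05 and 0.06. No correlations of differently numbered arrays are given beside them, so these values cannot show whether arrays of one number belong together. The main fit left the numbers out, since the labels do not say that they stand for mice. Without single arrays, Rhoa ranged from -0.13 to 0.0196, Msn from -0.0364 to 0.0170, Was from 0.02 to 0.12, Flna from -0.17 to -0.09, Gnai2 from -0.0493 to 0.0097 and Tagln from -0.0945 to 0.1416. Estimates near 0 changed sign: Msn was -0.0222 with array medians subtracted, Gnai2 was 0.0012 with quantile normalization and 0.0025 with array weights, Tagln was 0.0691 with array weights, and Rhoa was 0.0323 as the mean of its rows and 0.1483 and 0.0032 on its dimmer rows. Without both Jam2+ replicate 1 and Jam2- replicate 6, a choice made after seeing the data, as were the dimmer rows, Gnai2 was 0.0300 and Tagln 0.1098. Other pairings read other rows, so they do not test the rows used here for these genes. As deposited Flna was 0.0075 and Tagln 0.0457. Displaced by 1 row fewer, Rhoa was 0.0655, Msn -0.0379, Flna 0.0178 and Gnai2 0.0661, and by 1 row more Rhoa was 0.0319, Was -0.0124, Flna 0.3066 and Gnai2 0.2707. With the lowest 50% of rows removed Tagln had no value. The rescalings moved the median of all rows from 0.01 to -0.01 and -0.003.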
